A study of Homo sapiens with 6 samples.

Results

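The genes described here encode ATP-dependent chromatin remodelers, their core partners, and enzymes that add or remove methyl groups on histone lysines. They are the CHD, SMARC, ARID, KMT2 and KDM genes of the human genome, chosen by gene symbol: CHD1 to CHD9, the SMARC genes with a letter A to E and a digit, the ARID genes with a digit and the letter A or B, KMT2A to KMT2E, and the KDM genes except KDM5D. That gave 50 genes of the 60725 rows in the tables, 9 CHD, 11 SMARC, 8 ARID, 5 KMT2 and 17 KDM genes. No threshold on expression enters this choice. The families were, however, selected by a reader who knew how they differed between the groups, so sizes and directions of change are given below as a description, and the group as a whole was given no test.

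The tissue was xenograft tumour grown from MHCC97L, an established human hepatocellular carcinoma line. A group labelled rhLUM (3 libraries, A to C), treated with recombinant human lumican, a secreted proteoglycan of the extracellular matrix, was compared with a control group labelled Ctrl (3 libraries, A to C). The host strain, the dose, the route, the duration, and whether each library is a separate animal are not stated in the labels used here, so p-values measure only the spread between these libraries, which may be technical. Abundance is in TPM, a unit normalised for transcript length that sums to the same total in every library. Levels can therefore be compared between genes, but the sequencing depth is unknown.

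Remodelers use ATP to slide, evict or exchange nucleosomes. The SMARC genes other than SMARCA1 and SMARCA5 encode subunits of the BAF (SWI/SNF) complexes, as do ARID1A and ARID1B. SMARCA1 and SMARCA5 encode the ISWI motors, and CHD3, CHD4 and CHD5 the motors of the NuRD complex. KMT2 proteins are large methyltransferases acting mainly on lysine 4 of histone H3, a mark of promoters and enhancers, and KDM proteins remove methyl groups from histone lysines. Many of these genes are recurrently mutated in cancer, ARID1A and KMT2 genes in liver cancer among them.

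On the deposited scale most CHD transcripts were lower in the rhLUM tumours, most SMARC and KDM transcripts were higher, and the KMT2 and ARID families were divided. Of 11 SMARC and 16 KDM genes tested, 5 and 7 were higher after median-of-ratios scaling, and 4 and 6 after a length and GC correction. Called lower were 2 and 2 after scaling, and 3 and 4 after the correction. Among all tested genes 44.5% were higher as deposited, 34.3% after scaling and 37.3% after the correction. The shares lower were 22.3%, 30.9% and 29.2% in the same order. The steepest rises were those of the demethylases KDM4A and KDM1B and of the BAF core subunit SMARCC1. The steepest falls were those of the methyltransferase KMT2B, the remodelers CHD5 and CHD8, and ARID4A, a subunit of a histone deacetylase complex. Changes were moderate: as deposited, no tested member doubled or halved on the log2(TPM + 1) scale. On that scale log2 fold changes (rhLUM minus Ctrl) ran between -0.82 and 0.98. In plain TPM KDM4A averaged 210% of Ctrl, and after the length and GC correction ARID4A was at -1.03.

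Of the 50 genes, 49 averaged 1 TPM or more across the 6 libraries and were tested. KDM4D was below that level, at 0.19, 0.43 and 0.39 TPM in rhLUM and 0.25, 0.02 and 0.23 TPM in Ctrl. Of the 49, 24 were higher, 11 were lower and 14 did not pass (limma over all tested genes, adjusted p under 0.05). Among all 14781 tested genes 44.5% were higher and 22.3% lower. The median log2 fold change of the 49 was 0.16, and that of all tested genes was also 0.16. The rhLUM libraries lay wholly above the Ctrl libraries for 26 members and wholly below for 11, against 47.0% and 24.3% of all tested genes. As the families were put together with these values known, nothing is read from the counts against that background. As deposited the family medians were -0.37 for CHD, -0.079 for ARID, 0.24 for KDM, 0.28 for KMT2 and 0.38 for SMARC. After the length and GC correction described below they were -0.87 for CHD, -0.23 for ARID, 0.082 for KDM, -0.21 for KMT2 and -0.035 for SMARC. Families were also mixed within themselves, and KMT2 genes ran between -0.82 and 0.64 as deposited.

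The level of a rise depends on the scale. The mitochondrial share of TPM was 14.4 ± 0.10% in rhLUM and 20.6 ± 0.078% in Ctrl (SD, n = 3 each), which leaves more of the sum for nuclear genes in rhLUM. Scaling by the median of ratios moved the median of all genes by -0.15. After it 15 members were higher and 16 lower, against 34.3% and 30.9% of all genes tested. A correction of each library for transcript length and GC content moved the median of all genes by -0.11 and left 11 members higher and 21 lower, against 37.3% and 29.2% of all genes. The same direction was called as deposited, after median-of-ratios scaling, after rescaling without mitochondrial genes and after the length and GC correction for 22 members, 11 of them higher and 11 lower. How many of all tested genes were called the same way under all 4 was not computed, so nothing is read from this count. The 11 that were higher under all 4 are ARID1B, KDM1A, KDM1B, KDM4A, KDM5C, KDM6A, KDM6B, SMARCC1, SMARCC2, SMARCD1 and SMARCD2. The 11 that were lower are ARID4A, ARID4B, CHD1, CHD2, CHD3, CHD5, CHD6, CHD8, CHD9, KMT2B and KMT2E.

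**Figure D1:**
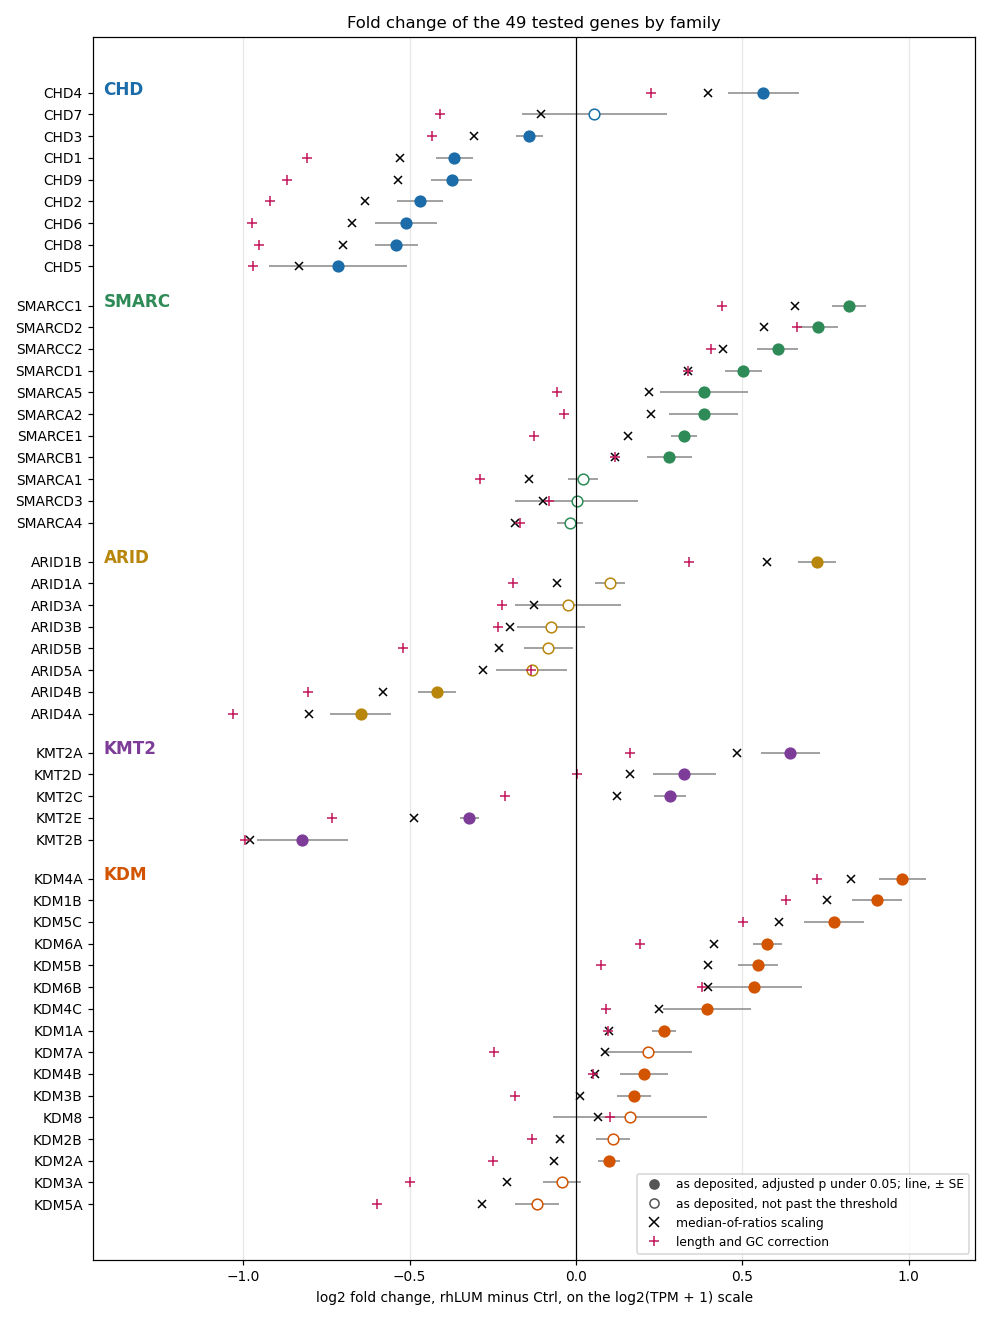
Log2 fold change (rhLUM minus Ctrl) of each tested member by family. Circles are the values as deposited with their SE (filled where adjusted p was under 0.05), crosses the values after median-of-ratios scaling and plus signs those after the length and GC correction. Of the CHD genes only CHD4 stands clearly right of 0 as deposited, and its plus sign lies at 0.23.

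Among the CHD genes, 7 of 9 fell, CHD4 rose and CHD7 did not pass, beside 22.3% lower and 44.5% higher among all tested genes. CHD8, a remodeler known for its part in neurodevelopment and as a partner of beta-catenin, had 18.41, 20.46 and 19.03 TPM in rhLUM, against 27.92, 30.66 and 27.00 TPM in Ctrl. The groups did not overlap, and CHD8 changed by -0.54 on the log2 scale (SE 0.064, adjusted p = 2.30e-04). CHD5, best known from neurons, was a low transcript at 1.52, 2.80 and 1.21 TPM in rhLUM and 3.28, 3.44 and 3.92 TPM in Ctrl. Its fall of -0.71 (SE 0.21, adjusted p = 0.0182) lost its call without Ctrl C (adjusted p = 0.0609) or without rhLUM A (adjusted p = 0.0561). The rhLUM libraries of CHD5 were spread more widely than the Ctrl libraries.

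CHD1 and CHD2, paralogues that act on transcribed chromatin, had 32.9 ± 2.35 and 37.6 ± 1.44 TPM in rhLUM and 42.7 ± 0.86 and 52.5 ± 4.96 TPM in Ctrl (SD, n = 3 each). Their log2 fold changes were -0.37 and -0.47. CHD6 and CHD9, which belong to the same subfamily as CHD7 and CHD8, changed by -0.51 (adjusted p = 0.00216) and -0.37 (adjusted p = 0.00138). After the length and GC correction the 7 CHD genes that fell lay lower still, between -0.97 for CHD6 and -0.43 for CHD3. CHD6 averaged 16.7 ± 1.39 TPM in rhLUM and 24.2 ± 2.81 TPM in Ctrl, and CHD9 25.7 ± 0.99 TPM in rhLUM and 33.6 ± 2.49 TPM in Ctrl. CHD7, mutated in CHARGE syndrome, varied most within the groups among the CHD genes above 10 TPM. It had 14.29, 22.89 and 25.86 TPM in rhLUM and 19.38, 16.61 and 23.36 TPM in Ctrl, so the groups overlapped and its difference of 0.055 had an SE of 0.22. After median-of-ratios scaling CHD7 stood at -0.10.

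The NuRD motors went apart. CHD4 had 95.64, 98.73 and 114.57 TPM in rhLUM, against 59.15, 75.48 and 73.98 TPM in Ctrl, a log2 fold change of 0.56 (SE 0.11, adjusted p = 0.00256). CHD4 was the only CHD gene whose rhLUM libraries all lay above the Ctrl libraries. After the length and GC correction CHD4 was at 0.23 and no longer passed. CHD3 had 61.00, 56.47 and 57.95 TPM in rhLUM, against 63.11, 66.63 and 63.77 TPM in Ctrl, a small fall of -0.14 (SE 0.041, adjusted p = 0.0194). That call of CHD3 was lost without Ctrl B (adjusted p = 0.0638), rhLUM B (adjusted p = 0.0609) or rhLUM C (adjusted p = 0.0542). Of the summed TPM of CHD3, CHD4 and CHD5, CHD4 made up 63.0 ± 2.77% in rhLUM and 50.4 ± 2.85% in Ctrl, CHD3 35.9 ± 2.61% and 47.0 ± 2.84%, and CHD5 1.14 ± 0.56% and 2.58 ± 0.20%, the rhLUM value first in each (SD, n = 3).

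Among the SMARC genes 8 of 11 rose and none fell as deposited, beside 44.5% higher and 22.3% lower among all tested genes. With median-of-ratios scaling the split was 5 higher to 2 lower, and with the length and GC correction 4 higher to 3 lower. The rises kept under every scaling and under the correction were those of the BAF core subunits SMARCC1, SMARCC2, SMARCD1 and SMARCD2. Those of SMARCB1 and SMARCE1, also BAF subunits, were not kept throughout, and SMARCD3 was not called. SMARCC1 (BAF155), a scaffold on which the complex assembles, had 33.27, 35.24 and 34.54 TPM in rhLUM, against 18.81, 20.08 and 18.14 TPM in Ctrl. Its log2 fold change was 0.82 (SE 0.051, adjusted p = 8.82e-06), 0.66 after scaling and 0.44 after the correction. SMARCC2 (BAF170), its paralogue, averaged 62.4 ± 0.70 TPM in rhLUM and 40.7 ± 3.47 TPM in Ctrl (SD, n = 3 each). SMARCD2, a further core subunit known for its role in granulocytes, had 42.37, 48.00 and 41.76 TPM in rhLUM, against 25.80, 26.64 and 25.99 TPM in Ctrl (log2 fold change 0.73, SE 0.059, adjusted p = 3.15e-05). SMARCD1 averaged 60.8 ± 2.71 TPM in rhLUM and 42.6 ± 2.62 TPM in Ctrl (log2 fold change 0.50). After the correction SMARCC2 stood at 0.41, SMARCD1 at 0.34 and SMARCD2 at 0.66. The muscle-associated SMARCD3 was low in both groups, at 1.24, 1.42 and 2.01 TPM in rhLUM and 1.40, 2.05 and 1.22 TPM in Ctrl.

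The BAF motors moved less. SMARCA4 (BRG1) had 49.20, 48.52 and 47.54 TPM in rhLUM and 47.55, 51.06 and 48.57 TPM in Ctrl, so the groups overlapped and the difference was -0.018 (SE 0.039, adjusted p = 0.70), while after scaling SMARCA4 was called lower, at -0.18, and after the correction at -0.17. SMARCA2 (BRM), its alternative in the complex, averaged 18.7 ± 1.5 TPM in rhLUM and 14.1 ± 2.00 TPM in Ctrl (SD, n = 3 each), with a log2 fold change of 0.38 (adjusted p = 0.0134) that was 0.23 and not called after scaling and -0.035 after the length and GC correction. The most abundant member of all was SMARCE1 (BAF57), with 129.07, 126.14 and 129.98 TPM in rhLUM and 105.16, 105.18 and 96.83 TPM in Ctrl. It rose by 0.32 as deposited and 0.16 after scaling, but was lower, at -0.13, after the length and GC correction. SMARCE1 also has 7 pseudogenes named after it, with which reads could be shared. SMARCB1 (SNF5), the tumour suppressor lost in rhabdoid tumours, rose by 0.28 as deposited and stood at 0.12, not called, after scaling.

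The ISWI motor SMARCA5 (SNF2H) averaged 42.4 ± 2.99 TPM in rhLUM and 32.5 ± 5.96 TPM in Ctrl, where Ctrl C, at 25.65 TPM, lay well below 36.08 and 35.87 TPM in Ctrl A and B. Its rise of 0.38 (adjusted p = 0.0346) was not called after scaling (0.22), nor without rhLUM B (adjusted p = 0.0841) or rhLUM C (adjusted p = 0.101), and stood at -0.057 after the length and GC correction. SMARCA1 (SNF2L), the other ISWI motor, averaged 19.5 ± 0.51 TPM in rhLUM and 19.2 ± 0.40 TPM in Ctrl (log2 fold change 0.020, and -0.14, called lower, after scaling).

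ARID proteins share a DNA-binding domain rather than a complex, and the family was divided. ARID1B, a subunit that defines one form of BAF, had 11.23, 11.58 and 11.88 TPM in rhLUM, against 6.39, 6.70 and 6.73 TPM in Ctrl. It rose by 0.72 (SE 0.058, adjusted p = 2.92e-05) and by 0.57 after scaling, and stood at 0.34 after the correction. ARID1A, its more abundant alternative and a frequent target of loss in cancer, had 18.66, 18.22 and 18.18 TPM in rhLUM and 17.25, 16.42 and 17.43 TPM in Ctrl. These groups did not overlap, but the difference of 0.10 (SE 0.046) did not pass (adjusted p = 0.0877) and turned to -0.057 after scaling and to -0.19, called lower, after the correction.

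ARID4A and ARID4B, paralogues in the SIN3 histone deacetylase complex, both fell. ARID4A had 10.40, 11.92 and 9.68 TPM in rhLUM, against 18.57, 17.56 and 15.62 TPM in Ctrl (log2 fold change -0.65, SE 0.092, adjusted p = 6.13e-04). ARID4B had 28.22, 24.62 and 27.01 TPM in rhLUM, against 35.07, 35.80 and 36.60 TPM in Ctrl (log2 fold change -0.42, SE 0.056, adjusted p = 4.51e-04). After the correction ARID4A was at -1.03 and ARID4B at -0.80. Exons of ARID4B overlap exons of RBM34 on the same strand, which was itself lower by -0.48, and whether shared reads bear on ARID4B was not tested. The transcription factors ARID3A, ARID3B, ARID5A and ARID5B did not pass, with log2 fold changes between -0.13 and -0.024 and levels of 1.52, 2.49, 6.69 and 7.35 TPM in rhLUM and 1.54, 2.68, 7.44 and 7.85 TPM in Ctrl, in that order of genes. ARID5B was called lower, at -0.23 after scaling and at -0.52 after the correction.

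All 5 KMT2 genes passed as deposited, 3 higher and 2 lower, beside 44.5% higher and 22.3% lower among all tested genes. With median-of-ratios scaling the split was 1 higher to 2 lower, beside 34.3% and 30.9% of all tested genes. With the length and GC correction it was 0 higher to 3 lower, beside 37.3% and 29.2%. KMT2A (MLL1), which maintains HOX gene expression and is rearranged in leukaemia, had 19.52, 21.84 and 24.09 TPM in rhLUM, against 12.46, 14.56 and 13.71 TPM in Ctrl. It rose by 0.64 (SE 0.089, adjusted p = 5.12e-04) and by 0.49 after scaling, and was at 0.16 and not called after the length and GC correction. KMT2B, the closest paralogue of KMT2A, had 12.84, 10.23 and 9.21 TPM in rhLUM, against 19.50, 17.08 and 22.68 TPM in Ctrl. It fell by 0.82 (SE 0.14, adjusted p = 0.00138), by 0.98 after scaling and by 0.99 after the correction. The ratio of KMT2A to KMT2B within a library, which no scaling of the library can alter, was 1.52, 2.13 and 2.62 in rhLUM, against 0.64, 0.85 and 0.60 in Ctrl. KMT2A was thus the more abundant of the pair in every rhLUM library and the less abundant in every Ctrl library.

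KMT2C and KMT2D, the paralogues that place the enhancer mark, rose less. KMT2D had 43.69, 34.19 and 35.75 TPM in rhLUM, against 28.03, 30.02 and 31.62 TPM in Ctrl, with rhLUM A above the rest. Its log2 fold change was 0.33 (SE 0.095, adjusted p = 0.0185), lost without Ctrl A (adjusted p = 0.0617), and 0.16 and not called after scaling. After the length and GC correction KMT2D was at 0.0023 and not called. KMT2C averaged 19.6 ± 0.68 TPM in rhLUM and 15.9 ± 0.33 TPM in Ctrl (SD, n = 3 each), 0.28 on the log2 scale, 0.12 and not called after scaling, and lower, at -0.21, after the length and GC correction. KMT2E, which has the family's SET domain but is thought to lack methyltransferase activity, was the most abundant of the family. It had 57.32, 56.85 and 56.29 TPM in rhLUM, against 71.52, 71.92 and 70.19 TPM in Ctrl, and changed by -0.32 (SE 0.029, adjusted p = 5.87e-05), and by -0.73 after the correction. KMT2E overlaps SRPK2 and KMT2E-AS1 on the opposite strand, at 75.3 and 3.14 TPM in rhLUM and 79.5 and 4.78 TPM in Ctrl, and the use of strand in counting is not given.

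The promoters of the pairs that went opposite ways are shown to let their sequences be compared beside these values. Each is the RefSeq window of GRCh38.p14, 250 bases before to 50 after the gene's start, printed 5′ to 3′ on the gene's strand. Capitals mark the GC box (GGGCGG on either strand) and the YY1 site (AAGATGGCG on either strand). The windows are chr11:118436242-118436541 (plus strand) for KMT2A, chr19:35717753-35718052 (plus) for KMT2B, chr12:6606402-6606701 (minus) for CHD4 and chr17:7888539-7888838 (plus) for CHD3. The last 2 lie inside the genes as GENCODE release 29 bounds them, so other start sites exist.
KMT2A: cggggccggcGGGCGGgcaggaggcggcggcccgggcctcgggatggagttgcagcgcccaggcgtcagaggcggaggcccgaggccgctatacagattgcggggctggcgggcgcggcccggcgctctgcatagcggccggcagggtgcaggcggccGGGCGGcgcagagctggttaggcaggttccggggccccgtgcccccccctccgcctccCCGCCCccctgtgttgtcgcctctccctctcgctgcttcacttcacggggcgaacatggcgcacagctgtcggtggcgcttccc
KMT2B: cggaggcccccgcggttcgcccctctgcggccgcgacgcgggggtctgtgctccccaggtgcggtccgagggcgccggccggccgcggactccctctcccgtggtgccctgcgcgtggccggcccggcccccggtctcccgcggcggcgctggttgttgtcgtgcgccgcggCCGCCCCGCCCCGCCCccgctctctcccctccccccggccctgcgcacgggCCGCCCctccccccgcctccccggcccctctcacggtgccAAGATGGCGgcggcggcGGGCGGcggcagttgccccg
CHD4: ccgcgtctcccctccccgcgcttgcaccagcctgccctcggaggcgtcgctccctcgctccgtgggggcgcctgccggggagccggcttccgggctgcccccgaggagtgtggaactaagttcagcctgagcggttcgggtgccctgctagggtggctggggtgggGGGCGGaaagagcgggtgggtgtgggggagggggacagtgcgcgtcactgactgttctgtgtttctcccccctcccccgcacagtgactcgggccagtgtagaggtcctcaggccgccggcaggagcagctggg
CHD3: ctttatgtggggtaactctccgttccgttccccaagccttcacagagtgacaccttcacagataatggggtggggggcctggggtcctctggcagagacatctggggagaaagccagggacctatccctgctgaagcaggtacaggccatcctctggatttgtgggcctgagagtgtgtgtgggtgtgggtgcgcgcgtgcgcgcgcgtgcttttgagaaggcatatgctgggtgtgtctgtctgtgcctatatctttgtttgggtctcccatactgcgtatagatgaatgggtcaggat

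The KMT2A window held 3 GC boxes and the KMT2B window 5, some of them overlapping, with a YY1 site just after the start in KMT2B alone of these 4. The CHD4 window held 1 GC box and the CHD3 window none of either motif. GC content was 76.3% for KMT2A, 83.3% for KMT2B, 71.7% for CHD4 and 56.0% for CHD3. Only genes with a single RefSeq window were used, which kept 31 of the 50 members and 22114 windows in all. A GC box was present in 24 of the 31 (77.4%) and in 43.0% of the 22114 windows. It was present in 14 of the 17 members whose transcript was higher and in 5 of the 8 whose transcript was lower. The YY1 site was present in 3 of 31 (9.68%) and in 1.86% of all windows. The TATA box (TATAAA) was present in 0 of 31 and in 12.7% of all windows, the CCAAT box (CCAAT) in 32.3% and 36.2%, the E-box (CACGTG) in 12.9% and 7.28%, and the ETS site (CCGGAAGT) in 3.23% and 4.51%, the members first, all on either strand. The members' windows were richer in G and C, with a median of 66.0% against 57.7% for all windows, and these shares move with base composition.

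Among the KDM genes 11 of 16 tested rose and none fell as deposited, beside 44.5% higher and 22.3% lower among all tested genes. With median-of-ratios scaling the split was 7 higher to 2 lower, and with the length and GC correction 6 higher to 4 lower. The demethylases of lysine 4 of histone H3 fall into the flavin-dependent KDM1 pair and the KDM5 group of JmjC oxygenases. KDM1B (LSD2), active in oocytes and on gene bodies, had 13.75, 12.95 and 13.43 TPM in rhLUM, against 6.93, 5.98 and 7.17 TPM in Ctrl. It rose by 0.90 (SE 0.076, adjusted p = 3.78e-05), and by 0.75 after scaling. KDM1A (LSD1), which acts in the CoREST complex, averaged 55.6 ± 1.74 TPM in rhLUM and 46.1 ± 0.32 TPM in Ctrl (SD, n = 3 each), with a smaller rise of 0.26 that was 0.099 after scaling and 0.097 after the correction, both still called. KDM5C averaged 55.3 ± 7.21 TPM in rhLUM and 31.7 ± 1.83 TPM in Ctrl, and KDM5B 10.4 ± 0.34 TPM in rhLUM and 6.82 ± 0.24 TPM in Ctrl. Their log2 fold changes were 0.78 and 0.55 as deposited and 0.61 and 0.40 after scaling. After the length and GC correction KDM5C was at 0.50, and KDM5B at 0.074 and not called.

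KDM5A, the third KDM5 enzyme, had 35.45, 34.17 and 37.49 TPM in rhLUM and 37.80, 42.42 and 36.38 TPM in Ctrl. Its groups overlapped, and its difference of -0.12 (SE 0.066, adjusted p = 0.153) did not pass, though it was called lower at -0.28 after scaling, at -0.22 without mitochondrial genes and at -0.60 after the length and GC correction. The ratio of KDM5C to KDM5A was 1.79, 1.51 and 1.35 in rhLUM, against 0.80, 0.80 and 0.85 in Ctrl, so the order of these paralogues was the opposite in the groups.

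The KDM4 enzymes act on lysines 9 and 36 of histone H3. KDM4A had 15.43, 17.04 and 15.81 TPM in rhLUM, against 7.18, 8.30 and 7.51 TPM in Ctrl, the largest rise of any member (log2 fold change 0.98, SE 0.071, adjusted p = 1.76e-05, and 0.83 after scaling). KDM4A lies on chromosome 1 at 43650158 to 43705515 (GRCh38, plus strand) and overlaps KDM4A-AS1, which averaged 1.12 TPM in rhLUM and 1.03 TPM in Ctrl. KDM4B and KDM4C rose by 0.20 (adjusted p = 0.0369) and 0.39 (adjusted p = 0.0328), and neither was called after scaling, at 0.058 and 0.25, or after the correction, at 0.052 and 0.090. Leaving out Ctrl A, Ctrl B, rhLUM A or rhLUM B ended the call of either (adjusted p up to 0.112 for KDM4B and 0.101 for KDM4C). KDM4B averaged 7.57 ± 0.36 TPM in rhLUM and 6.44 ± 0.37 TPM in Ctrl, and KDM4C 7.49 ± 1.40 TPM in rhLUM and 5.42 ± 0.61 TPM in Ctrl (SD, n = 3 each).

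KDM3A, a hypoxia-induced demethylase of lysine 9, was among the most abundant KDM genes, with 51.98, 50.12 and 57.08 TPM in rhLUM and 56.63, 55.32 and 51.87 TPM in Ctrl. Its groups overlapped (log2 fold change -0.042, SE 0.058, adjusted p = 0.547), and it was called lower, at -0.21 after scaling and at -0.50 after the length and GC correction. KDM3B, the related enzyme, rose by 0.18 as deposited (adjusted p = 0.0174), a call lost without Ctrl A (adjusted p = 0.0539) or rhLUM A (adjusted p = 0.0549). KDM3B was at 0.012 after scaling and at -0.18, called lower, after the length and GC correction. KDM2A, which binds unmethylated CpG islands, averaged 45.9 ± 0.13 TPM in rhLUM and 42.8 ± 0.91 TPM in Ctrl. Its rise of 0.10 (adjusted p = 0.032) turned to -0.064 after scaling and to -0.25, called lower, after the correction, and it was lost without any library but Ctrl C (adjusted p up to 0.0976). KDM2B, which recruits a Polycomb complex to CpG islands, stood at 0.11 and did not pass (adjusted p = 0.0877).

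KDM6A and KDM6B, demethylases of lysine 27, rose, including after scaling and after the correction. KDM6A (UTX), also a subunit of the KMT2C and KMT2D complexes, averaged 30.7 ± 0.73 TPM in rhLUM and 20.3 ± 0.65 TPM in Ctrl (SD, n = 3 each), a log2 fold change of 0.58 (SE 0.044, adjusted p = 2.41e-05) with 0.41 after scaling and 0.19 after the correction. KDM6B (JMJD3), known as an inflammation-induced enzyme in macrophages, had 6.62, 4.88 and 7.44 TPM in rhLUM, against 3.66, 3.92 and 4.41 TPM in Ctrl (log2 fold change 0.54, SE 0.14, adjusted p = 0.0132). KDM6B passed narrowly after scaling (0.40, limma adjusted p = 0.0411) and after the correction (0.38, adjusted p = 0.0388). Leaving out a library gave adjusted p up to 0.0455 for KDM6B. KDM7A, which acts on lysines 9 and 27, averaged 3.94 ± 0.79 TPM in rhLUM and 3.22 ± 0.081 TPM in Ctrl and did not pass (adjusted p = 0.182), except without rhLUM C (adjusted p = 0.0336), and stood at -0.25 after the correction. KDM8, assigned in different studies to demethylation or to hydroxylation, was at 0.98, 1.17 and 2.49 TPM in rhLUM and 1.24, 1.21 and 1.16 TPM in Ctrl, with rhLUM C apart from the rest.

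**Figure D2:**
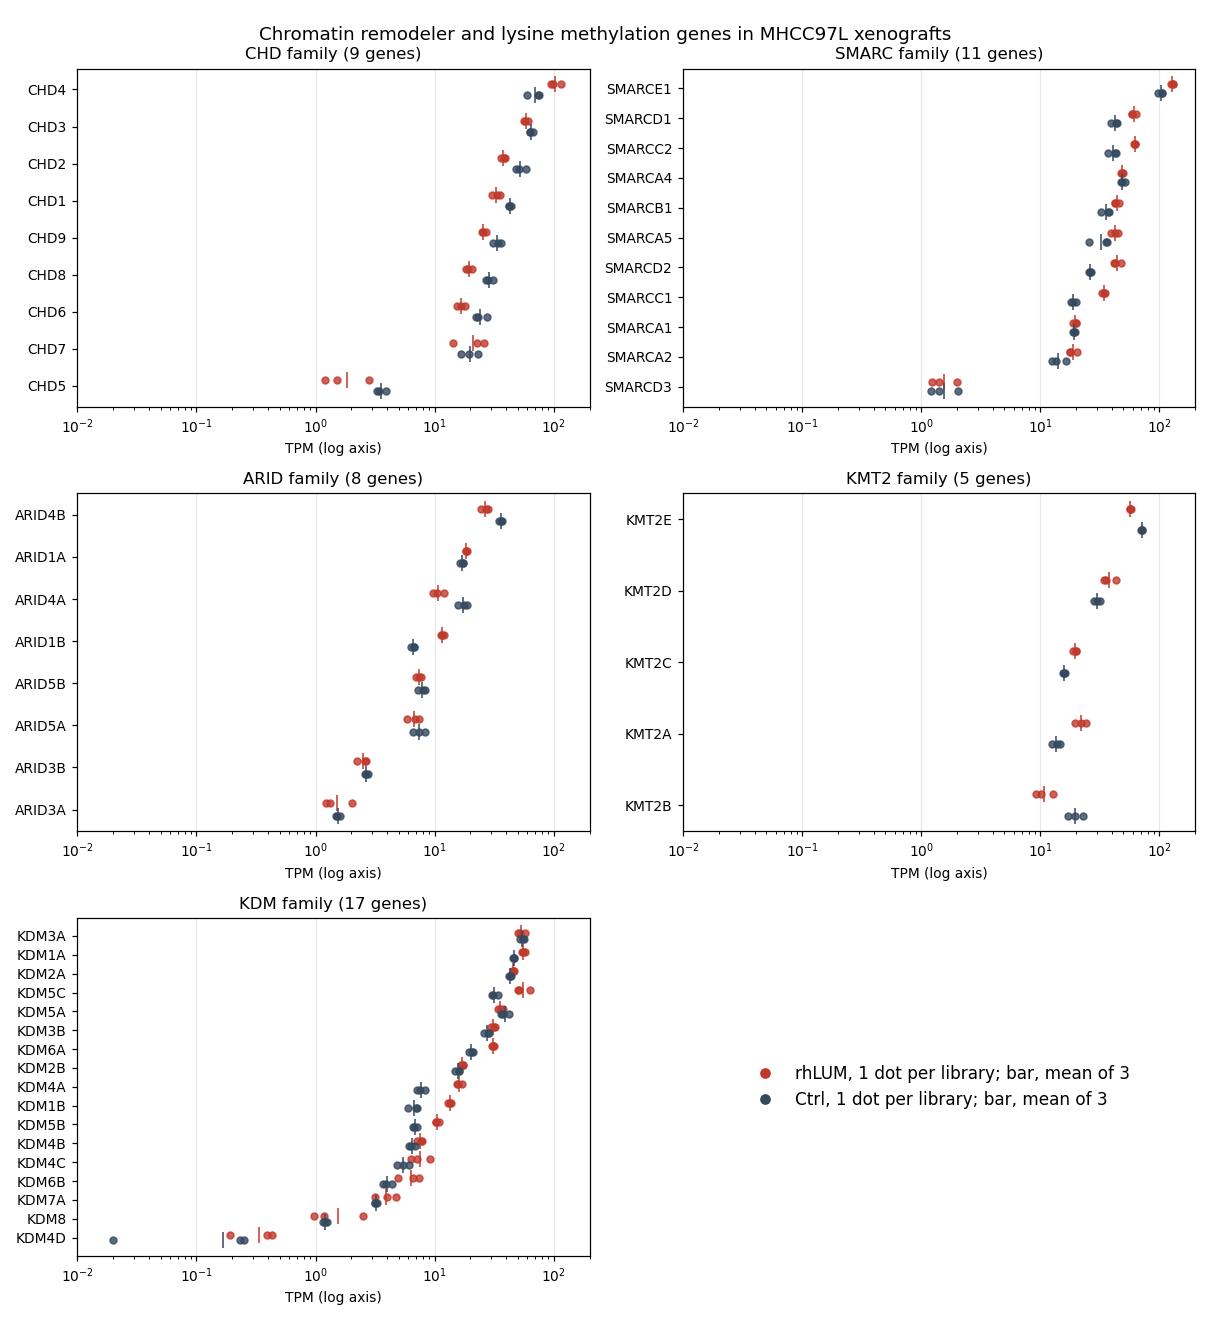
TPM of all 50 members in each of the 6 libraries (log axis), 1 panel per family, with a dot per library and a bar at the mean of 3. KDM4A, KDM1B, SMARCC1 and ARID1B show rhLUM dots right of the Ctrl dots, while CHD8, KMT2B and ARID4A show them left.

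By level, the members spanned from KDM4D, at a mean of 0.34 TPM in rhLUM and 0.17 TPM in Ctrl, to SMARCE1, at 128 ± 2.01 TPM in rhLUM and 102 ± 4.82 TPM in Ctrl (SD, n = 3 each). In rhLUM the next places were held by CHD4, SMARCC2, SMARCD1 and CHD3, at 103.0, 62.4, 60.8 and 58.5 TPM. SMARCC2, SMARCD1 and CHD3 are close neighbours in that order: the rhLUM libraries of SMARCD1 overlapped those of SMARCC2 and of CHD3. In Ctrl the next places were held by KMT2E, CHD4, CHD3 and KDM3A, at 71.2, 69.5, 64.5 and 54.6 TPM, and the Ctrl libraries of CHD4 overlapped those of KMT2E and CHD3. CHD2 was in place 16 of 50 in rhLUM and 6 in Ctrl, SMARCC2 in place 3 in rhLUM and 12 in Ctrl, and KDM5C in place 8 in rhLUM and 18 in Ctrl. Summed over each family, SMARC transcripts made 504 ± 2.44 TPM in rhLUM and 383 ± 9.45 TPM in Ctrl, KDM 391 ± 8.19 and 319 ± 5.32 TPM, CHD 316 ± 18.0 and 339 ± 20.8 TPM, KMT2 147 ± 4.73 and 150.4 ± 3.26 TPM, and ARID 85.3 ± 1.62 and 96.2 ± 1.82 TPM, the rhLUM sum first in each (SD, n = 3). The CHD sums of the groups overlapped, as did the KMT2 sums.

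Ratios between related genes within a library were computed for 22 pairs, chosen with the values known, and no library scaling alters them, though the length and GC correction does, since it moves the genes of a pair by different amounts. The groups did not overlap for 11 of the 22 pairs, and no background of other pairs was computed. Single tested genes did not overlap in 47.0% (rhLUM above) and 24.3% (rhLUM below) of cases. Nothing is therefore read from the count of pairs. The ratio of CHD4 to CHD3 was 1.57, 1.75 and 1.98 in rhLUM, against 0.94, 1.13 and 1.16 in Ctrl. The ratio of ARID1B to ARID1A was 0.63 ± 0.026 in rhLUM and 0.39 ± 0.019 in Ctrl (SD, n = 3 each), so ARID1A stayed the more abundant BAF subunit in both groups. The ratio of SMARCA4 to SMARCA2 was 2.41, 2.72 and 2.67 in rhLUM, against 2.91, 4.10 and 3.56 in Ctrl. As deposited SMARCA4 and SMARCA2 changed by -0.018 and 0.38, and after the correction by -0.17 and -0.035, so their difference was smaller. The corrected changes of KMT2A and KMT2B were 0.16 and -0.99, of CHD4 and CHD3 0.23 and -0.43, and of ARID1B and ARID1A 0.34 and -0.19. The ratio of KDM1B to KDM1A was 0.24 ± 0.0086 in rhLUM and 0.15 ± 0.014 in Ctrl, and that of KDM4A to KDM4B 2.13 ± 0.13 in rhLUM and 1.19 ± 0.11 in Ctrl. Pairs whose ratios overlapped between the groups included KMT2C to KMT2D, KDM2A to KDM2B, KDM6A to KDM6B and CHD1 to CHD2.

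**Figure D3:**
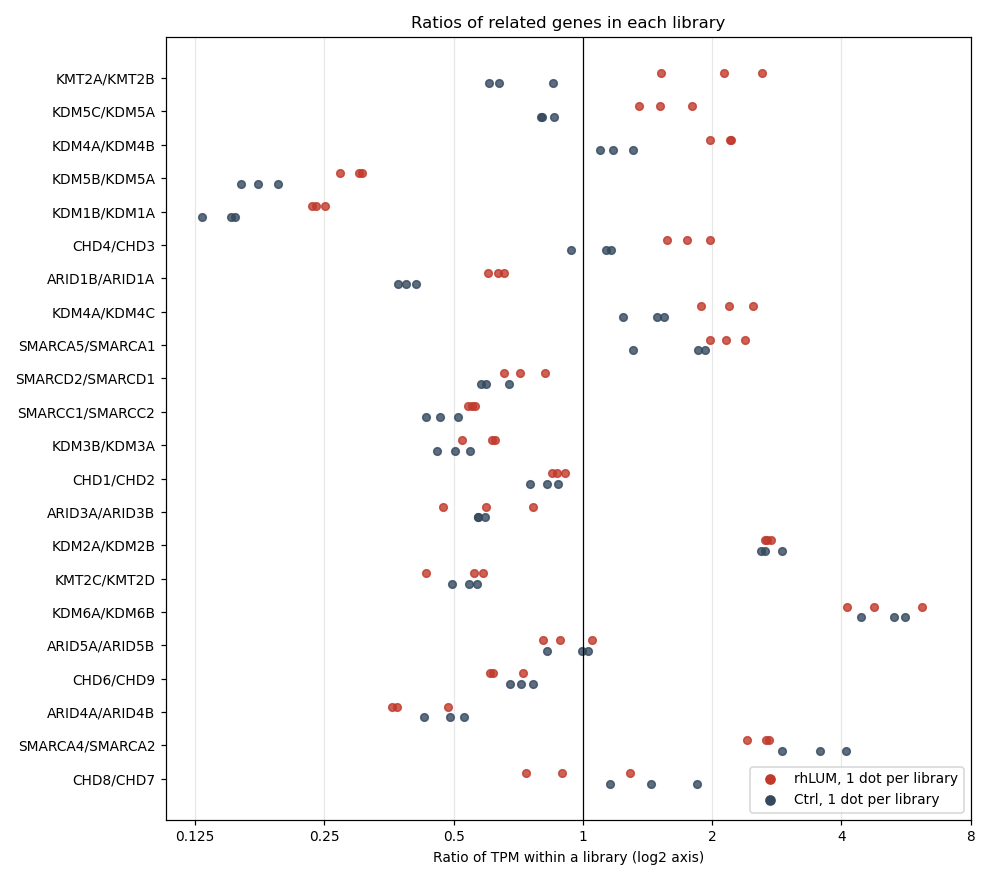
Ratio of the TPM of related genes within each library (log2 axis), 1 dot per library, rhLUM above Ctrl in each row. KMT2A/KMT2B lies above 1 in all 3 rhLUM libraries and below 1 in all 3 Ctrl libraries, as does KDM5C/KDM5A.

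Most members are long genes, and length moves with fold change in these libraries. Over tested genes with an annotated length, cut by length into 10 classes of nearly equal size, the median log2 fold change was -0.099 in the shortest class and 0.47 in the longest (transcripts of 7393 bases or more), where 66.4% of genes were higher and 13.3% lower. The longest class held 20 of the 49 tested members, and the class next to it 15. The CHD genes had a median longest transcript of 9363 bases and a median log2 fold change of -0.37, while the SMARC genes had 5210 bases and 0.38. CHD8 (8471 bases), KMT2B (8469 bases), CHD2 (9363 bases) and CHD9 (13110 bases) lay below 0 in a length class where most genes lay above it. KMT2C (16862 bases) and KMT2D (19419 bases), at 0.28 and 0.33, lay below that class's median of 0.47. Why length and fold change moved together was not tested.

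**Figure D4:**
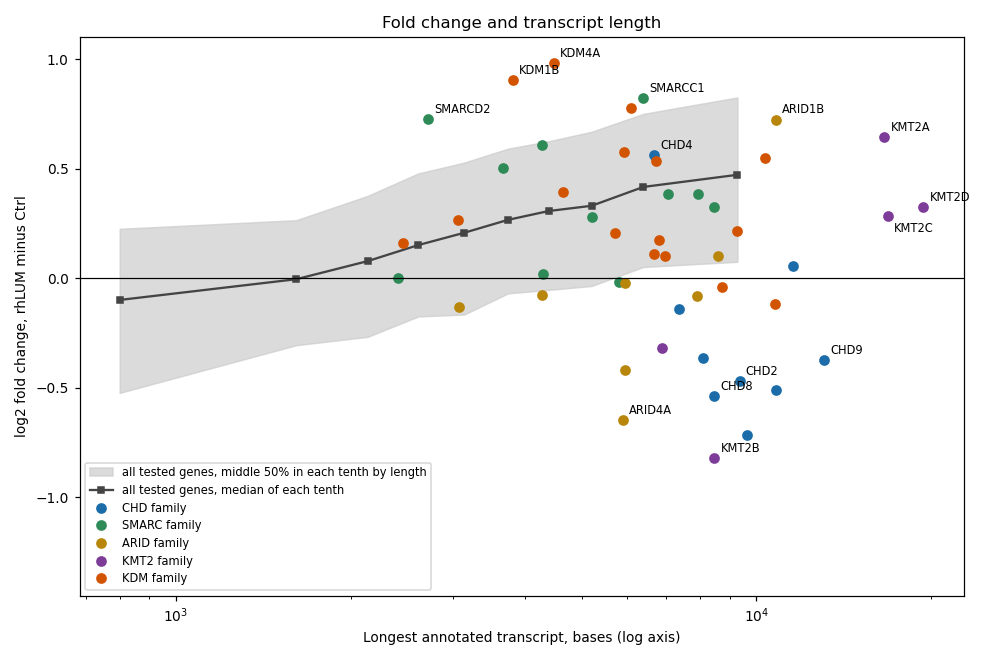
Log2 fold change (rhLUM minus Ctrl) against the longest annotated transcript in bases (log axis). Dots are the tested members coloured by family, squares the median of all tested genes in each length class, and the grey band their quartiles. The squares run between -0.099 and 0.47, while most CHD dots lie below 0.

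Genes that work with these proteins were listed in 5 groups by function. Their counts stand beside 44.5% higher and 22.3% lower among all tested genes as deposited, 34.3% and 30.9% after scaling, and 37.3% and 29.2% after the length and GC correction. Of 14 tested BAF and PBAF partners 8 rose and 3 fell, and after scaling 5 were higher and 5 lower. Their median was 0.26 as deposited and -0.073 after the correction, under which 5 of the 12 with a known length were higher and 6 lower. They included BCL7A, a BAF subunit, at 9.27 ± 0.45 TPM in rhLUM and 3.80 ± 0.56 TPM in Ctrl (SD, n = 3 each; log2 fold change 1.1). PBRM1, the polybromo subunit of PBAF, was at 19.6 ± 0.92 TPM in rhLUM and 9.96 ± 0.069 TPM in Ctrl (0.91), and DPF2, a histone reader of BAF, changed by 0.67. The actin-like subunit ACTL6A was among those that fell, by 0.45 on the log2 scale. Of 23 ISWI, NuRD and other remodeler partners 13 rose and 8 fell (median 0.30), and scaling left 11 higher and 8 lower. The correction left 9 higher and 10 lower (median 0.11). GATAD2A, a NuRD subunit, was at 36.1 ± 2.19 TPM in rhLUM and 15.2 ± 0.28 TPM in Ctrl (1.19), RBBP4, a histone chaperone of NuRD, at 112 ± 4.23 TPM in rhLUM and 62.5 ± 1.08 TPM in Ctrl (0.83), and SRCAP, which deposits the variant H2A.Z, changed by 0.95. BAZ1A, an ISWI partner, fell by 0.69 and RSF1, another, by 0.62.

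Of 13 COMPASS partners and SETD1 enzymes 7 rose and 2 fell (median 0.26), and scaling left 5 higher and 3 lower. The correction left 6 higher and 4 lower (median 0.11). RBBP5, a subunit of the KMT2A to KMT2D complexes, was at 13.6 ± 0.74 TPM in rhLUM and 6.71 ± 0.27 TPM in Ctrl (0.92). The methyltransferases SETD1A and SETD1B changed by 0.85 and 0.38. Of 24 other lysine methyltransferase genes, counting the EZH2 partners EED, SUZ12 and JARID2, 17 rose and 4 fell (median 0.38). Scaling left 15 higher and 5 lower. The correction left 9 higher and 6 lower of the 19 with a known length (median 0.14). SETD7 was at 31.3 ± 1.18 TPM in rhLUM and 11.8 ± 0.47 TPM in Ctrl (1.34), SETD8, which methylates histone H4, at 96.7 ± 8.18 TPM in rhLUM and 43.9 ± 3.91 TPM in Ctrl (1.12), and NSD1, which methylates lysine 36 of histone H3, changed by 1.05. SMYD3 fell to 77.3 ± 2.29 TPM in rhLUM, against 156 ± 1.58 TPM in Ctrl. Of 12 other JmjC proteins and KDM1A partners 8 rose and 2 fell (median 0.32), and scaling left 6 higher and 3 lower. The correction left 4 higher and 3 lower of 10 (median 0.20). HIF1AN, the hydroxylase that inhibits hypoxia-inducible factor, was at 10.1 ± 1.54 TPM in rhLUM and 2.65 ± 0.17 TPM in Ctrl (1.60), the corepressor HR changed by 1.00, and RCOR1, the KDM1A partner of the CoREST complex, by 0.78. Medians of these lists stand beside 0.16 for all tested genes as deposited and 0.0095 after scaling.

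As a check of the tissue, the liver and epithelial markers ALB, AFP, KRT8 and KRT18 were at 825, 28.6, 2474 and 1150.3 TPM in rhLUM and 289, 31.2, 1060.3 and 901 TPM in Ctrl, while EPCAM was at 0.82 TPM in rhLUM and 2.03 TPM in Ctrl. Of 7 markers of other cells, PTPRC, VWF and PDGFRB did not exceed 0.48 TPM in any library. COL1A1 and COL1A2 were at 5.11 and 2.59 TPM in rhLUM and 3.30 and 1.65 TPM in Ctrl, PECAM1 at 25.3 TPM in rhLUM and 16.4 TPM in Ctrl, and CD68 at 58.1 TPM in rhLUM and 33.6 TPM in Ctrl. Their part in the results was not tested. In bulk tumour RNA, fewer cells of a type and less RNA per cell cannot be told apart. Exons of 21 members overlap a gene on the opposite strand in GENCODE release 29, among them SMARCC2, whose neighbour MYL6 was at 1739.8 TPM in rhLUM and 1255 TPM in Ctrl. Exons of 11 members, ARID4B among them, overlap those of another gene on the same strand. Whether shared reads bear on these members was not tested.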

How the data were processed

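RNA sequencing of 6 xenograft libraries was analysed, 3 rhLUM and 3 Ctrl, grouped by their titles. The tools named in the submitters' processing notes are RSEM 1.2.31 and STAR 2.7.8, with the build GRCh38. Per the labels' protocols, poly-A RNA was sequenced paired-end. The authors deposited TPM, per the file headers, 1 table per library with 2 decimals. Annotation release, use of strand and removal of mouse reads: not given in the sources used here. TPM keeps no depth, so precision is given by the 3 libraries of a group.

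The members and lists were chosen with earlier results of these data known. A total of 2210 rows that share a symbol were left out. Genes averaging 1 TPM or more were kept. On the log2(TPM + 1) scale, limma 3.58.1 under R 4.3.3 took group as its only term and a variance trend (two-sided, Benjamini-Hochberg over all 14781 genes, threshold 0.05). A pseudocount of 1 understates changes of low genes. With 3 libraries against 3, exact permutation reaches p = 0.1 at best and was not run. The fit was tested on simulated data. Every member is named. Values in each library are given for, in each family, those with the largest changes each way, the most abundant and opposite paralogues, with others added after their values were seen. Of each partner list, up to 3 called genes with the largest changes are named. ACTL6A, BAZ1A, RSF1 and SMYD3 were added to show falls.

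Length and GC content come from the longest transcript in GENCODE release 29, found for 86.8% of tested genes and all 49 tested members. The correction subtracts from each library a loess (span 0.5) of its deviation from the mean on log2 length and GC content. Partner symbols were matched through RefSeq synonyms. Alternatives were median-of-ratios scaling, rescaling without mitochondrial genes, a pseudocount of 0.1, no filter, the length and GC correction, a replicate block, no variance trend and leaving out each library. Promoters come from RefSeq (GRCh38.p14), and genes with more than 1 window were left out.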

Additional observations from a re-analysis of the deposited data

How the results depend on the processing

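As deposited, 24 members were higher and 11 lower, against 44.5% and 22.3% of all tested genes. Median-of-ratios scaling gave 15 higher and 16 lower, against 34.3% and 30.9%. The length and GC correction gave 11 higher and 21 lower, against 37.3% and 29.2%. Adding a replicate block to the correction gave the same counts but not the same genes: KDM1A was no longer called (adjusted p = 0.0712 in limma) and CHD4 was (adjusted p = 0.0201). Family medians moved by more than the spread between replicates. Median-of-ratios scaling gave 0.012 for all members, -0.54 for CHD, 0.22 for SMARC, -0.21 for ARID, 0.12 for KMT2 and 0.093 for KDM. Rescaling without mitochondrial genes gave 0.071, -0.48, 0.28, -0.17, 0.18 and 0.15 in that order, and the length and GC correction, alone or with a replicate block, -0.13, -0.87, -0.035, -0.23, -0.21 and 0.082. The pseudocount of 0.1 gave 0.27 for KDM. Leaving out a library gave 0.11 (without rhLUM B) to 0.19 for all members, 0.31 to 0.47 for SMARC, 0.22 to 0.30 for KMT2 and 0.23 to 0.30 for KDM.

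Signs turned after median-of-ratios scaling for ARID1A (-0.057), CHD7 (-0.10), KDM2A (-0.064), KDM2B (-0.047), SMARCA1 (-0.14) and SMARCD3 (-0.10), and after rescaling without mitochondrial genes for ARID1A (-2.0e-04), CHD7 (-0.048), KDM2A (-0.0056), SMARCA1 (-0.083) and SMARCD3 (-0.068). After the length and GC correction, with or without a replicate block, they turned for ARID1A (-0.19), CHD7 (-0.41), KDM2A (-0.25), KDM2B (-0.13), KDM3B (-0.18), KDM7A (-0.25), KMT2C (-0.21), SMARCA1 (-0.29), SMARCA2 (-0.035), SMARCA5 (-0.057), SMARCD3 (-0.081) and SMARCE1 (-0.13). On leaving out a library, 5 uncalled genes turned: ARID3A (-0.16 to 0.059), CHD7 (-0.11 to 0.30), KDM8 (-0.088 to 0.32), SMARCA4 (-0.040 to 0.010) and SMARCD3 (-0.12 to 0.14). Of the 35 called members, 8 lost the call on leaving out at least 1 library. The replicate block gave 21 higher and 11 lower, beside 6429 and 3219 of all 14781 genes tested. The calls of KDM2A, KDM4B and SMARCA5 were lost. Without the filter 21 were higher and 10 lower, beside 6560 and 3604 of 29333 genes. There CHD5 (limma adjusted p = 0.0532), KDM4B (0.0808), KDM4C (0.0833) and SMARCA5 (0.0853) lost their calls. Without the variance trend 22 were higher and 11 lower, beside 6534 and 3230 of 14781 genes, and KDM2A (0.0542) and SMARCA5 (0.0607) lost theirs. Libraries with the same letter did not deviate together (r of -0.023 to 0.084 across genes), and 2 of the 3 rhLUM libraries did not correlate best with their own letter. The causes were not tested. Depth is unknown, and low genes such as KDM8 and CHD5 vary most.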

Other observations

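Single libraries stood apart for a few members. KDM8 and ARID3A were highest in rhLUM C, at 2.49 and 2.01 TPM, against 0.98 to 1.17 and 1.23 to 1.33 TPM in the other rhLUM libraries. CHD7 had 14.29 TPM in rhLUM A and 22.89 to 25.86 TPM in rhLUM B and C. KMT2D and KDM5C were highest in rhLUM A, at 43.69 and 63.58 TPM.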
